A study of Mus musculus with 20 samples.

Results

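The genes described here are 50 mouse genes of the cell division cycle and of DNA replication, 25 that act in or are switched on around G1 and S phase and 25 that act in G2 and mitosis. Members were taken by symbol: every probe of the Illumina mouse BeadChip whose platform annotation carries 1 symbol and whose symbol is on the list. Of the 50 genes, 48 had a named probe, with 103 probes in all among the 45281 on the chip. A total of 66 of these probes were detected (detection p below 0.05) on at least 5 of the 20 arrays, and 40 genes could be tested among 10018 genes in all, 24 of the G1/S class and 16 of the G2/M class.

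The study loaded macrophages grown from C57BL/6 mouse bone marrow with cholesterol crystals and treated them with hydroxypropyl-beta-cyclodextrin (HPβCD), a ring-shaped sugar that takes up cholesterol. Marrow cells were cultured for 6 days in medium with 10% serum and 40 ng/ml of the macrophage growth factor M-CSF. The group con was untreated and its mice were labelled 10 to 15 months old. The group cc received cholesterol crystals for 3 h, at 200 ug for 1000000 cells. The group CD received 10 mM HPβCD for 6 h, and the group CD-cc received the crystals for 3 h and then HPβCD for 6 h. Mice of cc, CD and CD-cc were labelled 2 to 5 months old, so every comparison with con also compares ages, and treatment and age cannot be told apart there. CD-cc and CD carry the same age label and differ by the crystals, but most of their arrays lay on different chips. The time that con and cc cells stood before lysis is not given, and the series design also speaks of mice that lack LXR, for which the array labels give no genotype.

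A cell entering the cycle first makes D-type cyclins in response to growth factors. These bind CDK4 or CDK6 and inactivate the RB protein, which releases E2F transcription factors and with them the genes for origin licensing, nucleotide supply and the replication fork. Later a second wave of genes, held in check by the DREAM complex and driven by B-MYB and FOXM1, supplies CDK1, the Aurora and Polo-like kinases, the spindle checkpoint and the cytokinesis machinery. M-CSF is the mitogen of cultured bone marrow macrophages, and cells kept in it go on dividing as they mature.

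Each group had 5 arrays, spread over 6 chips. Median bead signals lay between 86.6 and 128 units, and 33.9% to 39.5% of probes were detected on an array. Chips 1 and 5 held 3 arrays of each group, all with high Xist signal (log2 11.00 to 11.51), and chips 2, 3, 4 and 6 held 2 arrays of each group, all with high Eif2s3y signal (log2 10.17 to 10.90), so this chip batch coincides with the sex of the mice as read from those transcripts. Single chips did not hold every group. Within chips 1 and 5, the 3 CD-cc arrays were all on chip 1 and the 3 CD arrays all on chip 5. Only chip 6 held arrays of both CD and CD-cc. Of 12 macrophage markers, 10 had a probe and all 10 were detected on all 20 arrays. All values below are log2 bead signals after background correction and quantile normalization, a difference is a difference of group means in log2 with its standard error, and a gene is said to rise or fall where limma's adjusted p was below 0.05. Because the labels do not say whether replicates came from separate animals or cultures, p-values measure the spread between these arrays. In RNA of whole cultures, fewer cycling cells and less of a transcript in each cell cannot be told apart.

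Of the 50 genes, 10 gave no value. Ccnb1 and Mki67 had no probe named for them in the annotation and were not analysed here. Chek1, Ccna2, Ube2c, Ccnb2, Bub1, Kif20a, Racgap1 and Hmmr had named probes that were detected on at most 1 array, so the absence of a value says only that the signal did not stand above background. Of the 40 genes tested, 39 were detected on all 20 arrays and 1, the cyclin E gene Ccne1, on 16, with 2 of 5 CD-cc arrays. The G2/M class is therefore described by 16 of 25 members and the G1/S class by 24 of 25.

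Crystal-loaded cells had lower signals for most cell cycle genes than untreated cells. Of the 40 genes, 18 fell, against 8.97% of all 10018 genes, and 2 rose, Cdk4 and Cdt1, against 8.49%. The 18 comprised 9 of 24 G1/S genes and 9 of 16 G2/M genes. The sign was negative for 35 of 40 members, against 52.7% of all genes, and for 16 of 16 G2/M members. The median log2 difference was -0.43 over the members and -0.02 over all genes. Groups of 5 arrays did not overlap for 14 members that were lower after crystals, against 7.63% of all genes, and for 1 that was higher, Cdk4, against 7.32%. When the 5 sets of 4 arrays (1 of each group) that the authors' deposited values equalise were entered as a block, 29 members were lower (15 G1/S and 14 G2/M, against 15.2% of all genes) and the same number, 2, higher (against 12.5%). When arrays were scaled to a common median in place of quantile normalization, 1 member, Ccnd3, stayed below the threshold and 0 were higher, against 1.59% of all genes lower and 3.12% higher, while the members' median was -0.36.

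**Figure D1:**
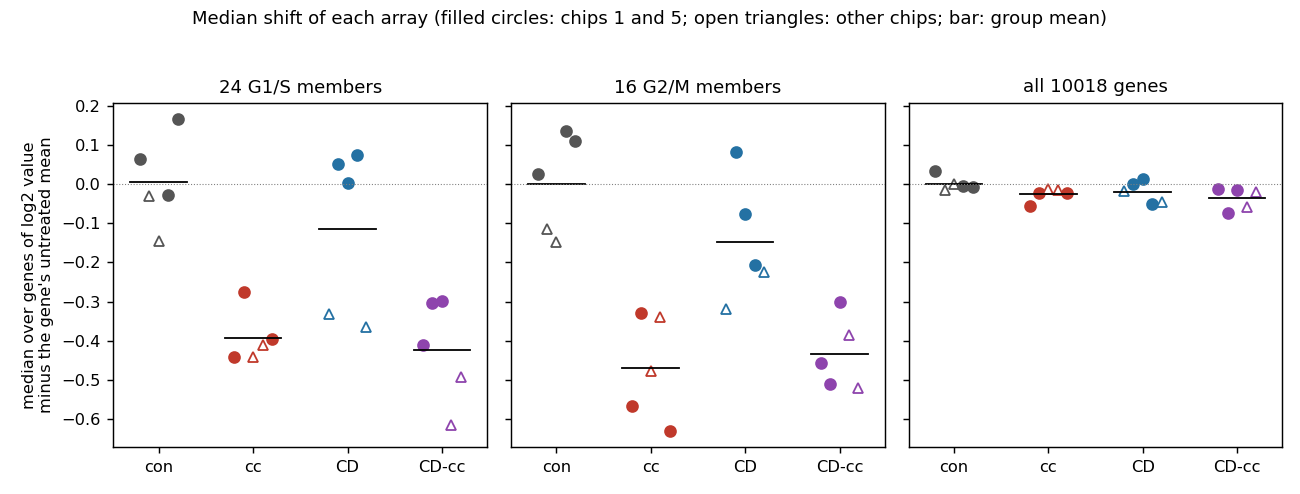
Median over genes of each array's log2 signal minus that gene's untreated mean, for the 24 G1/S members, the 16 G2/M members and all 10018 genes, with 1 point per array and a bar at each group mean. The cc and CD-cc arrays lie below all con arrays in both member panels, and the medians of all genes lie near 0 in every group.

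The shift was seen array by array. Relative to each gene's untreated mean, the median of the G1/S members was between -0.14 and 0.17 on the con arrays and between -0.44 and -0.27 on the cc arrays. The median of the G2/M members was between -0.15 and 0.14 on the con arrays and between -0.63 and -0.33 on the cc arrays. No cc array reached the lowest con array in either class. The 2 classes differed in how uniform they were: over genes, the cc minus con differences had an SD of 0.43 in the G1/S class (range -1.09 to 0.83) and of 0.13 in the G2/M class (range -0.65 to -0.09), while the class medians were -0.43 and -0.47. The G2/M members therefore stood at a similar small deficit, and the G1/S members held the largest differences of both signs.

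**Figure D2:**
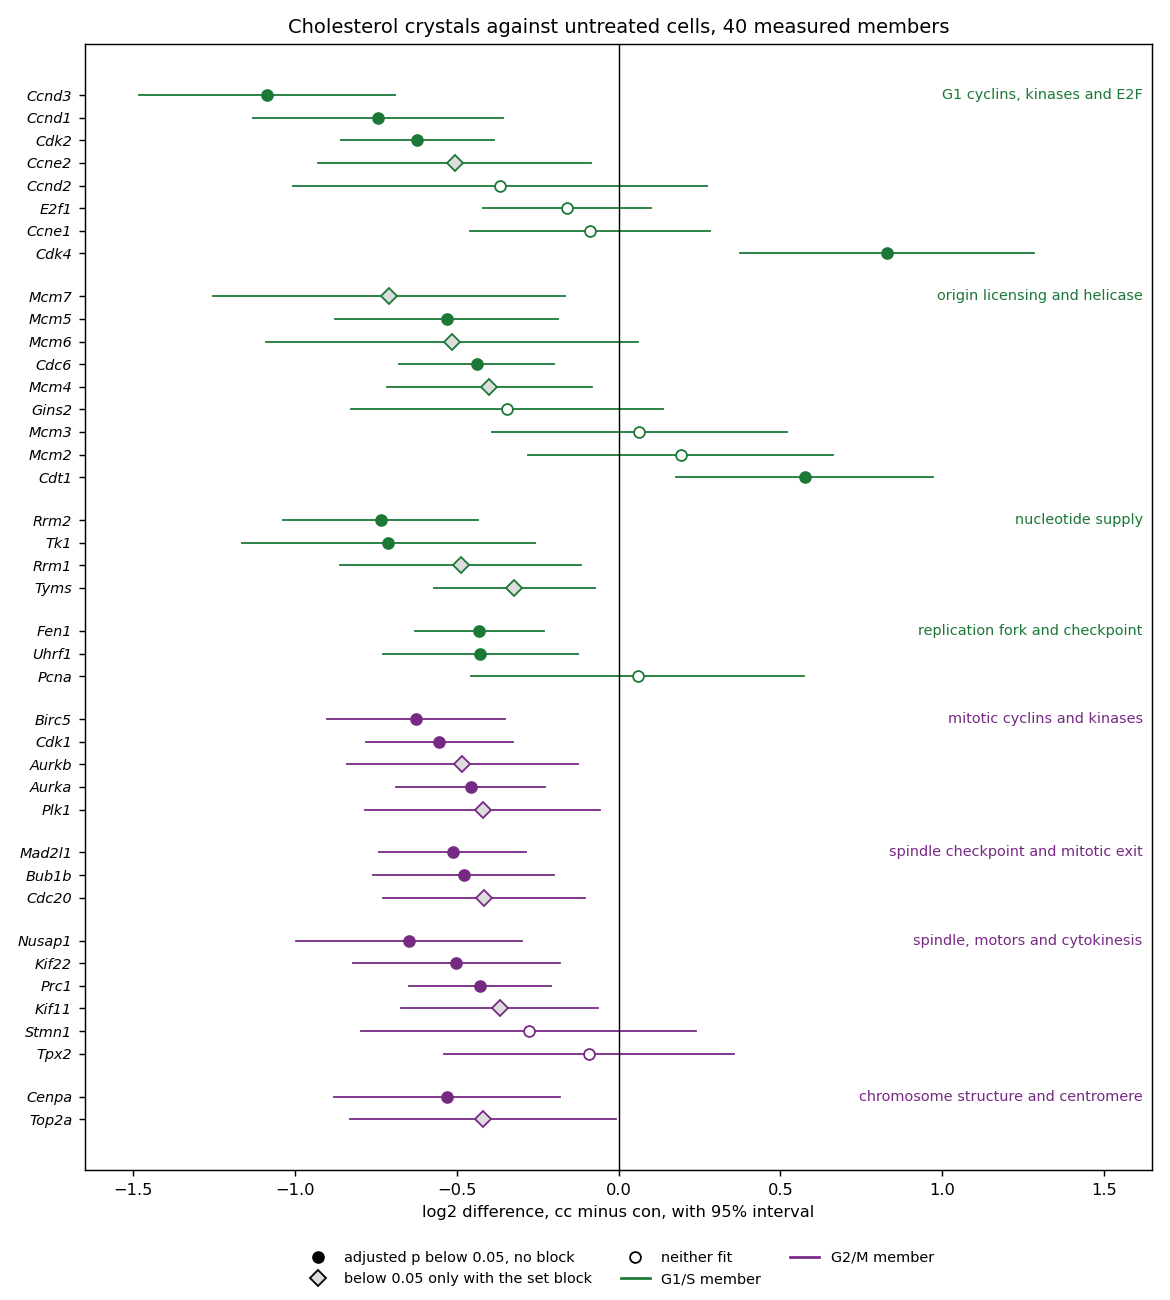
Log2 difference between cc and con for the 40 measured genes, ordered by role and with 95% intervals; filled circles passed the test without a block, grey diamonds passed only with the set block, and open circles passed neither. Ccnd3 at -1.09 and Cdk4 at 0.83 are the extremes, and all 16 G2/M genes lie left of 0.

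Among the G1 genes, cyclins D3 and D1 fell while their kinase Cdk4 rose. Ccnd3 encodes cyclin D3, 1 of the 3 D-type partners of CDK4 and CDK6. Its log2 signal on replicates 1 to 5 was 8.71, 8.47, 8.51, 9.01 and 8.86 in untreated cells and 7.71, 7.73, 7.73, 7.83 and 7.13 after crystals. It was 8.09, 8.88, 8.70, 9.15 and 8.24 after HPβCD alone and 7.38, 7.88, 7.83, 7.33 and 7.50 after crystals and HPβCD. Every crystal-loaded array, with or without HPβCD, lay below every array without crystals. The fall from con to cc was -1.09 ± 0.19 (adjusted p = 6.13e-04), a 2.12-fold lower signal.

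Ccnd1 encodes cyclin D1, a D-type cyclin that growth factors induce. Its signal was 11.39, 10.96, 11.29, 11.42 and 11.57 in con and 10.28, 10.87, 10.78, 10.72 and 10.27 in cc. The 2 groups did not overlap, and Ccnd1 fell by 0.74 ± 0.19 (adjusted p = 0.00851). In CD it was 11.10, 11.60, 11.59, 11.55 and 10.83, and in CD-cc 10.96, 11.24, 11.56, 10.66 and 11.12. The CD-cc arrays reached from the cc range into the con range. The third D cyclin, Ccnd2, differed by -0.37 ± 0.31 (adjusted p = 0.48) and did not pass.

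Cdk4, the kinase that D cyclins activate, was the member with the largest positive difference. Its signal was 8.01, 8.59, 8.91, 8.37 and 8.16 in con and 9.68, 8.92, 9.34, 9.16 and 9.09 in cc, with the lowest cc array just above the highest con array. Cdk4 rose by 0.83 ± 0.22 (adjusted p = 0.0118), a 1.78-fold higher signal. It was 8.60, 7.99, 8.19, 8.99 and 8.83 in CD and 8.69, 9.76, 9.15, 9.24 and 9.12 in CD-cc. A second Cdk4 probe differed by 0.58. In limma fits over all detected probes its adjusted p was 0.235 without a block and 0.0284 with the set block. Without the block the rise thus rests on 1 of 2 detected probes.

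Cdk2, the kinase that cyclin E and cyclin A activate at the start of S phase, fell. Its signal was 10.14, 10.46, 10.44, 10.26 and 10.31 in con and 9.49, 9.59, 9.97, 9.91 and 9.53 in cc. It was 10.29, 10.24, 10.25, 10.18 and 10.17 in CD and 9.34, 9.31, 9.57, 9.45 and 9.76 in CD-cc. All 10 arrays with crystals lay below all 10 without, and the difference between cc and con was -0.62 ± 0.11 (adjusted p = 8.80e-04). Its partner gene Ccne2 differed by -0.51 ± 0.20, passing only with the set block (adjusted p = 0.0931 without it and 0.0318 with it). Ccne1 at -0.089 ± 0.18 and E2f1, the activating E2F, at -0.16 ± 0.12 passed in neither fit.

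Origin licensing loads the MCM helicase on DNA in G1, with Cdc6 and Cdt1 as loaders. Cdc6 fell, from 6.44 ± 0.13 in con to 6.003 ± 0.12 in cc (SD, n = 5 each), by 0.44 ± 0.11 (adjusted p = 0.0113), with no overlap of the groups. Cdt1 moved the other way. Its signal was 10.26, 11.08, 10.39, 9.89 and 10.09 in con and 11.01, 11.12, 10.53, 10.87 and 11.06 in cc. The con arrays covered a wide range, their highest array lay among the cc arrays, and Cdt1 rose by 0.57 ± 0.19 (adjusted p = 0.0429). Without cc replicate 1, 2, 4 or 5, or con replicate 1, 3, 4 or 5, the adjusted p of Cdt1 was between 0.0602 and 0.132. The arrays of chips 1 and 5 gave a difference of 0.98 and those of the remaining chips -0.04, with an adjusted p of 0.177 for the difference between the batches.

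Of the 6 subunits of the MCM2-7 helicase, which unwinds DNA at the fork, 1 passed without the set block. Mcm5 fell by 0.53 ± 0.16 (adjusted p = 0.0307). Its signal was 10.46, 10.12, 10.24, 10.47 and 10.69 in con and 9.95, 10.06, 9.70, 9.68 and 9.94 in cc, with no overlap. Without cc replicate 1, 3, 4 or 5, or con replicate 1, 4 or 5, its adjusted p was between 0.0502 and 0.0885. Mcm7 had the largest difference of the 6, -0.71 ± 0.26 with an adjusted p of 0.0671, and passed with the set block (0.00147). Its signal was 7.69, 7.39, 7.03, 7.69 and 7.77 in con and 7.20, 7.30, 6.43, 6.41 and 6.66 in cc, and the groups overlapped. Mcm6 at -0.51 ± 0.28 and Mcm4 at -0.40 ± 0.15 also passed only with the set block (adjusted p = 0.0373 and 0.0185). Mcm2 at 0.19 ± 0.23 and Mcm3 at 0.064 ± 0.22 passed in neither fit, with 95% intervals from -0.28 to 0.66 and from -0.39 to 0.52. Differences between the subunits were not tested. Gins2, of the GINS complex that completes the helicase, differed by -0.35 ± 0.23 (adjusted p = 0.353).

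The nucleotide supply genes were the role with the lowest median, -0.60 over 4 genes. Rrm2, the small subunit of ribonucleotide reductase, which makes deoxynucleotides, was at 8.07, 8.33, 7.99, 7.60 and 7.70 in con. In cc it was at 6.99, 7.34, 7.19, 7.19 and 7.31. All 5 cc arrays lay below all 5 con arrays, and Rrm2 was also at 7.32, 6.98, 7.44, 7.32 and 7.40 in CD-cc. Between con and cc Rrm2 differed by -0.74 ± 0.14 (adjusted p = 0.00157). Tk1, the thymidine kinase of the salvage route, fell by 0.71 ± 0.22 (adjusted p = 0.0277). Its signal was 9.38, 9.51, 9.37, 10.04 and 9.57 in con and 9.28, 8.88, 8.78, 8.85 and 8.51 in cc. Without cc replicate 3 or 5, or con replicate 4 or 5, its adjusted p was between 0.0508 and 0.0901. The large reductase subunit Rrm1, at -0.49 ± 0.18, and the thymidylate synthase Tyms, at -0.32 ± 0.12, passed only with the set block (adjusted p = 0.00687 and 0.0499).

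At the fork, Fen1 and Uhrf1 fell. Fen1, the nuclease that trims Okazaki fragments, was at 10.14, 10.32, 10.30, 10.57 and 10.27 in con and 9.77, 9.95, 10.02, 9.77 and 9.94 in cc. It fell by 0.43 ± 0.095 (adjusted p = 0.00367), with no overlap. Fen1 was also at 9.89, 10.03, 9.98, 9.98 and 9.94 in CD, below every con array. Pcna, the sliding clamp that Fen1 binds, differed by 0.059 ± 0.25 between cc and con (adjusted p = 0.924), and its 95% interval, from -0.46 to 0.57, holds the Fen1 value. Uhrf1, which keeps DNA methylation at replicated sites, fell by 0.43 ± 0.14 (adjusted p = 0.0462). Its groups overlapped, at 9.61 to 10.10 in con and 9.18 to 9.72 in cc. The call of Uhrf1 was held at the threshold: without any 1 of 14 arrays (con replicate 1, 2, 4 or 5, cc replicate 1, 3, 4 or 5, CD replicate 4, or any CD-cc replicate) its adjusted p was between 0.0502 and 0.135.

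Of the mitotic kinases, Cdk1, which drives entry into mitosis, varied little between untreated arrays. Its signal was 9.30, 9.33, 9.24, 9.21 and 9.28 in con and 8.69, 8.69, 8.79, 8.79 and 8.63 in cc. The con arrays (SD 0.045) lay above all cc arrays. Cdk1 fell by 0.55 ± 0.11 (adjusted p = 0.00157). In CD-cc it was 8.53, 9.05, 8.73, 8.85 and 8.78, again below every con array. Birc5, the survivin subunit of the chromosomal passenger complex, was 9.18, 9.11, 8.97, 9.48 and 9.41 in con and 8.40, 8.67, 8.68, 8.75 and 8.52 in cc. It fell by 0.63 ± 0.13 (adjusted p = 0.00264), and 2 further Birc5 probes differed by -0.69 and -0.60.

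Aurka, the Aurora kinase of the spindle poles, fell by 0.46 ± 0.11 (adjusted p = 0.0071). Its signal was 8.56, 8.55, 8.52, 8.66 and 8.68 in con and 7.91, 8.31, 8.12, 8.35 and 8.003 in cc, with no overlap. Aurkb, the passenger complex kinase, at -0.48 ± 0.17, and Plk1, the Polo-like kinase of mitotic entry and exit, at -0.42 ± 0.17, passed only with the set block (adjusted p = 0.00511 and 0.0266).

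All 3 measured genes of the spindle checkpoint and mitotic exit had lower means after crystals. Mad2l1, the checkpoint protein that holds CDC20 inactive, was 9.05, 8.90, 8.92, 9.07 and 9.21 in con and 8.28, 8.53, 8.66, 8.67 and 8.45 in cc. It fell by 0.51 ± 0.11 (adjusted p = 0.00277) without overlap. Bub1b, which encodes BUBR1 of the same inhibitory complex, fell by 0.48 ± 0.13 (adjusted p = 0.0177), from 9.11 to 9.36 in con to 8.45 to 8.97 in cc. Without cc replicate 5 the difference was -0.40 and its adjusted p 0.0611. Cdc20, the activator of the anaphase-promoting complex that both of these restrain, differed by -0.42 ± 0.15 and passed only with the set block (0.0105).

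Among the spindle and cytokinesis genes, Nusap1, which bundles microtubules at chromosomes, had the largest difference of the G2/M class. It was 9.73, 9.59, 9.18, 9.83 and 10.17 in con and 8.81, 9.37, 9.01, 9.13 and 8.92 in cc. It fell by 0.65 ± 0.17 (adjusted p = 0.0104), although the highest cc array lay above the lowest con array. Kif22, a motor that moves chromosome arms, fell by 0.50 ± 0.15 (adjusted p = 0.0276). Without cc replicate 1 or 5, or con replicate 1, 4 or 5, its adjusted p was between 0.0558 and 0.0881. Prc1, which crosslinks the central spindle, fell by 0.43 ± 0.10 (adjusted p = 0.00762). Kif11, the motor that separates spindle poles, at -0.37 ± 0.15, passed only with the set block (0.0325). Stmn1, a microtubule destabiliser, at -0.28 ± 0.25, and Tpx2, which activates Aurora A on the spindle, at -0.092 ± 0.22, passed in neither fit.

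Of the chromosome genes, Cenpa, the histone variant of centromeres, was 11.44, 11.35, 11.16, 11.95 and 11.64 in con and 10.84, 11.24, 10.82, 11.11 and 10.89 in cc. It fell by 0.53 ± 0.17 (adjusted p = 0.0334). The groups overlapped, and without cc replicate 1, 3 or 5, or con replicate 1, 4 or 5, its adjusted p was between 0.0501 and 0.109. Top2a, the topoisomerase that untangles chromosomes, differed by -0.42 ± 0.20 and passed only with the set block (0.0234).

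**Figure D3:**
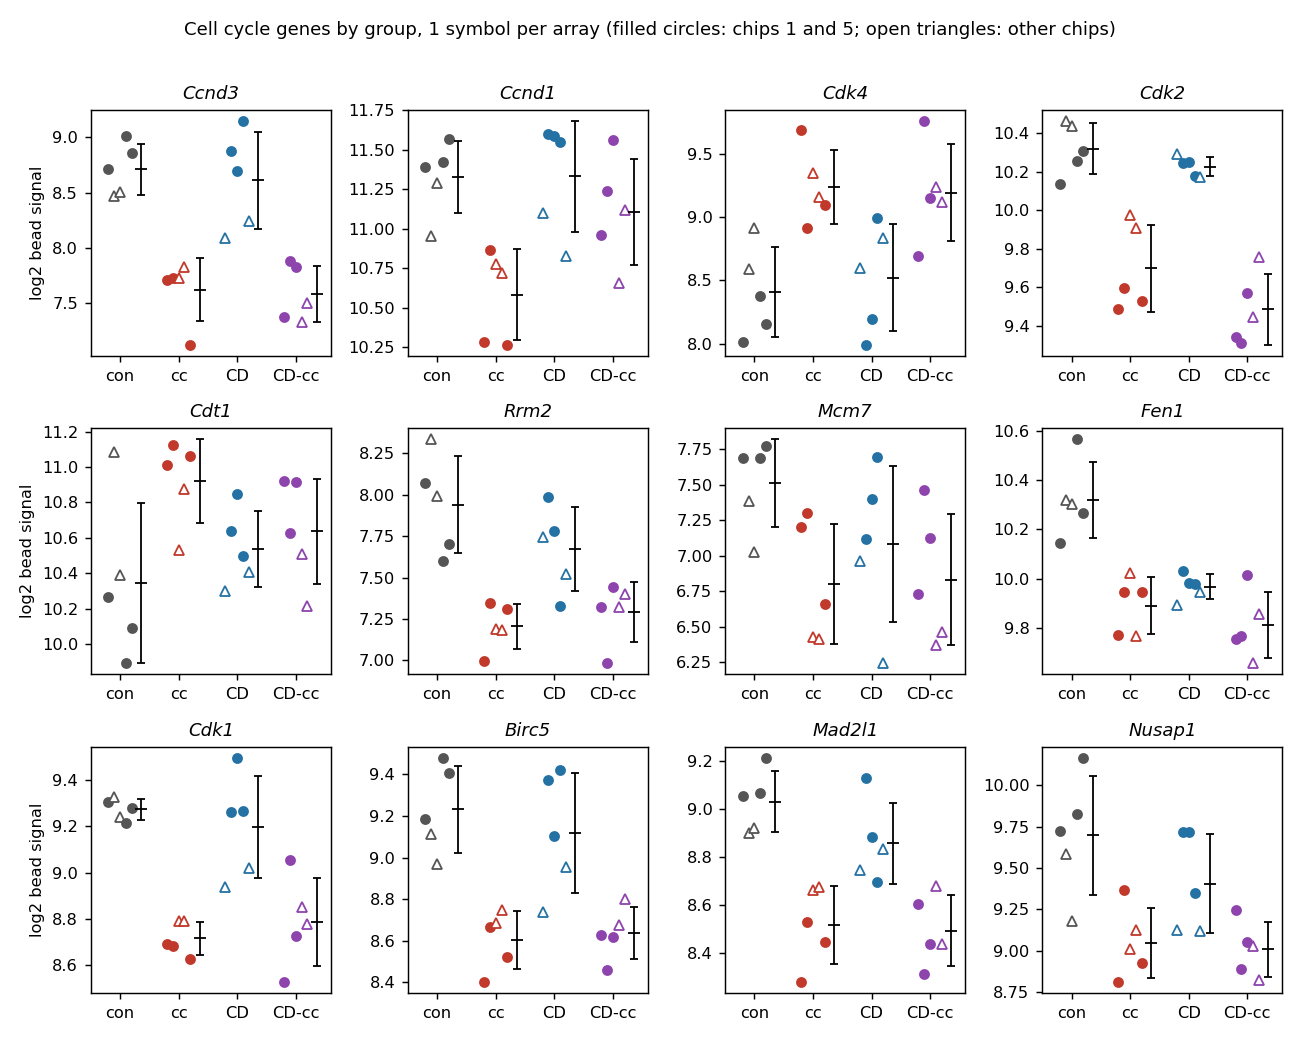
Log2 bead signal of 12 members on each of the 20 arrays, by group, with the group mean and SD (n = 5) as black bars; filled circles are arrays of chips 1 and 5 and open triangles arrays of the other chips. For Ccnd3 and Cdk2 all crystal-loaded arrays lie below all others, and Cdk4 and Cdt1 show higher cc means than con means.

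Since many members moved in 1 direction, the promoters of the listed genes were read for the textbook elements of the 2 expression waves. RefSeq promoters (GRCm38.p6, from 250 bases before to 50 after the annotated start) were found for 40 of the 50 members, 20 of each class. The E2F site was searched as TTTCCCGC, TTTCGCGC, TTTGCCGC and TTTGGCGC, the CHR element, which DREAM and B-MYB complexes bind, as TTTGAA, and the CCAAT box, bound by NF-Y, as CCAAT, each on both strands. An E2F match was in 35% of G1/S promoters, in 5% of G2/M promoters and in 2.32% of all 27025 promoters of the table. A CHR match was in 10%, 75% and 18.11%, and a CCAAT match in 50%, 85% and 37.92%. Both CHR and CCAAT were in 5% of G1/S, 75% of G2/M and 7.12% of all promoters. The 2 classes thus differed in the letters of their promoters, while their median cc minus con differences over all arrays, -0.43 and -0.47, lay close together. Which class had the lower median differed between the chip batches (given below).

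The 4 promoters shown are, in each class, one with the most matches and the one whose gene had the largest change in crystal-loaded cells. In the G1/S class 4 promoters, of Mcm3, Mcm5, Mcm6 and Mcm7, were tied at 5 matches, and Mcm7 is shown because its difference between cc and con was the largest of the 4. In the G2/M class Top2a alone had the most, 8. Capitals mark the matches. Mcm7 lies on the minus strand at chr5:138171834-138172133, with 2 E2F matches and 3 CCAAT matches, where 1 E2F match shares a base with the CCAAT match that follows it. Ccnd3 lies on the plus strand at chr17:47504801-47505100 and holds none of the 3 motifs.
Mcm7: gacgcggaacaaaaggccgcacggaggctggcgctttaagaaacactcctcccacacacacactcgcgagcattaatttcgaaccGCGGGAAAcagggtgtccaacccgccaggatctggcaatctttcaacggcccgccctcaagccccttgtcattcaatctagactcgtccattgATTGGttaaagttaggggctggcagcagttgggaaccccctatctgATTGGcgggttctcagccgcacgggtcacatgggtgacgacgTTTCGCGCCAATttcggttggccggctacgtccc
Ccnd3: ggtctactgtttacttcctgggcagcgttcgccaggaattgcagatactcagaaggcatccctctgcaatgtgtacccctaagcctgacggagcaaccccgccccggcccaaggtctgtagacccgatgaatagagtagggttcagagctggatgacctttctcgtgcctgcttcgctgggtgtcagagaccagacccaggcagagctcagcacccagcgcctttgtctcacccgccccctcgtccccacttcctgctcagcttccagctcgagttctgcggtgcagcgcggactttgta
Top2a lies on the minus strand at chr11:99024140-99024439, with 2 CHR matches and 6 CCAAT matches, the second CHR match 23 bases before the start. Nusap1 lies on the plus strand at chr2:119618048-119618347 and holds none of the motifs.
Top2a: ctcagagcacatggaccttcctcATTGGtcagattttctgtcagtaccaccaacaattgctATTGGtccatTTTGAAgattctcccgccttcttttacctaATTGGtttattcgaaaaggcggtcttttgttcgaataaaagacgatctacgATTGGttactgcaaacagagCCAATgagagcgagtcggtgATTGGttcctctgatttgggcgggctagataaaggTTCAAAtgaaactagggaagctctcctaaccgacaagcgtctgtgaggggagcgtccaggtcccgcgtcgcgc
Nusap1: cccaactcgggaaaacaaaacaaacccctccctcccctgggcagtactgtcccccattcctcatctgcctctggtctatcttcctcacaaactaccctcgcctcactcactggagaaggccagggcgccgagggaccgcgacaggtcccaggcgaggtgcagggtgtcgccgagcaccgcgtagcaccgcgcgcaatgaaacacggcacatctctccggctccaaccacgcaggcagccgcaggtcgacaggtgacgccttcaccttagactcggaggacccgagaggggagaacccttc
Ccnd3 and Nusap1, chosen for their change, fell by 1.09 and 0.65 and hold no such match in this window. Mcm7 at -0.71 and Top2a at -0.42, chosen for their matches, passed only with the set block. The choice fixed which gene of each class changed more, so the 4 genes cannot relate matches to change. A match is a stretch of letters and not a measured binding site. Of the 20 G1/S promoters, 12 belong to genes that were lower in either fit after crystals, and 5 of these held an E2F match. Of the 7 whose genes were measured and not called lower, Cdk4 and Cdt1 among them, 2 held one. These counts are too small to relate the match to the fall. In the G2/M class the 13 promoters of measured genes all belong to genes called lower in either fit, so no such comparison can be made there. The genes of the remaining 8 promoters were not measured.

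The effect of crystals in the presence of HPβCD was measured by CD-cc against CD, which share the age label and share no array with cc or con. Only chip 6 held arrays of both groups, so crystals and chip cannot be fully told apart in this comparison. There 7 members fell, against 4.64% of all genes, and 0 rose, against 4.56%. The 7 were Ccnd3 at -1.03, Cdk2 at -0.74, Uhrf1 at -0.56, Birc5 at -0.48, Cdk1 at -0.41, Cdc6 at -0.37 and Mad2l1 at -0.36, with adjusted p between 2.90e-04 and 0.0485. The groups did not overlap for 4 of them (Ccnd3, Cdk2, Uhrf1 and Mad2l1), against 3.47% of all genes, and for 0 higher members, against 4.01%. With the set block 15 were lower, against 10.1%, and 1 was higher, against 8.46%, Cdk4 at 0.67 ± 0.22 (adjusted p = 0.0607 without the block and 0.0084 with it). The median over the members was -0.34 and over all genes -0.02, and 35 of 40 members were below 0, against 53.3% of all genes. The count of lower members was 2 without CD replicate 2, 3 without CD replicate 3 and 4 without CD replicate 4, against 2.84%, 3.21% and 3.33% of all genes, and the calls of Ccnd3 and Cdk2 held without any 1 array. Cdk4 passed as the only higher member without CD-cc replicate 1, CD replicate 4 or CD replicate 5.

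Uhrf1 and Aurka are given in both crystal comparisons. The signal of Uhrf1 was 9.87, 10.34, 10.43, 9.94 and 9.72 in CD and 9.65, 9.41, 9.56, 9.36 and 9.52 in CD-cc. The groups did not overlap and Uhrf1 fell by 0.56 ± 0.14 (adjusted p = 0.017), where cc and con had overlapped. Aurka differed by -0.068 ± 0.11 in CD-cc against CD (adjusted p = 0.792) beside its fall of 0.46 in cc against con.

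Since these 2 comparisons share no array, they can be set side by side. All 7 genes that fell in CD-cc against CD had also fallen in cc against con, which is 100% of the shorter list and 39% of the 18 of the longer. With the set block 14 genes were lower in both, 93% of 15 and 48% of 29. The same overlap over all genes was not computed, so these shares have no baseline and are not read as a trait of the members. The sign was the same for 40 of 40 members, against 78.2% of all genes. Across the members the 2 differences correlated with r = 0.82, and across all 10018 genes with r = 0.86, a description over genes that are not independent. Chips and sets are shared between the comparisons.

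**Figure D4:**
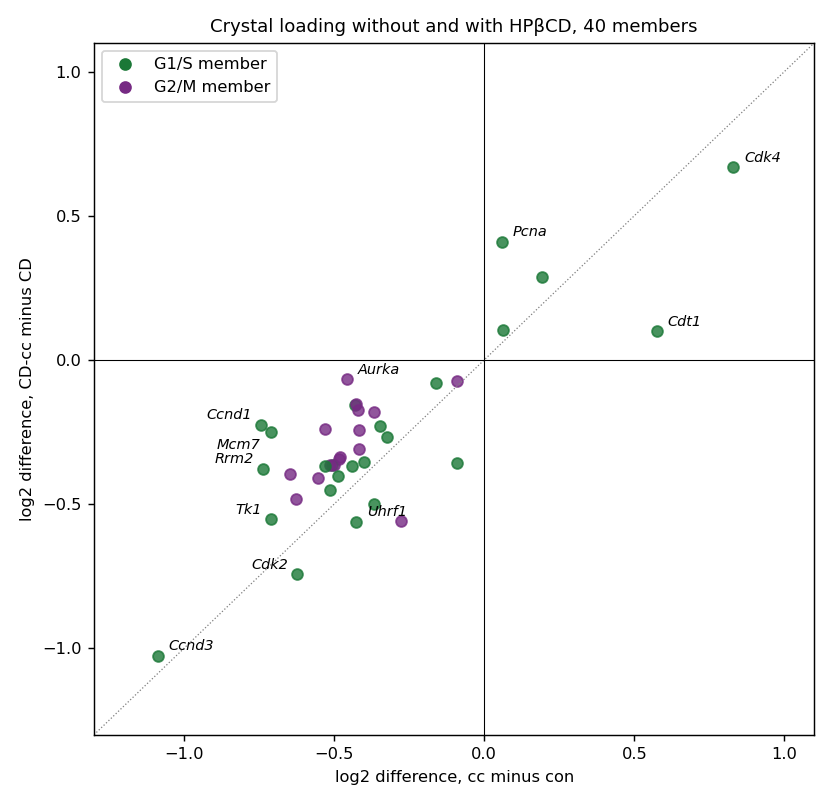
Log2 difference of each of the 40 members between cc and con (horizontal) and between CD-cc and CD (vertical), green for G1/S and purple for G2/M, with the line of equal change dotted. Ccnd3 and Cdk4 stand at the ends in both comparisons, 35 members lie below 0 in both, and Cdt1 lies at 0.57 in the first and 0.099 in the second.

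In CD against con, the comparison of HPβCD alone, limma called 0 of 40 members, against 0.848% of all genes higher and 0.279% lower, and 3 members (all lower) had an unadjusted p below 0.05. With the set block 0 were higher, against 2.57% of all genes, and 2 were lower, against 1.56%: Fen1 at -0.35 ± 0.095 (adjusted p = 0.024, 0.0923 without the block) and Cenpa at -0.46 ± 0.17 (0.0225, 0.259 without the block). The median over members was -0.12. The sign was negative for 32 of 40 members, against 53.9% of all genes.

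In CD-cc against cc, which asks what HPβCD did in cells that already held crystals, limma called 0 members and 0 of all 10018 genes in either direction, and 2 members (Ccnd1 and Aurka, both higher) had an unadjusted p below 0.05. The set block also called 0 members, against 1.29% of all genes higher and 0.509% lower. The authors' deposited values without a block called 2 higher, against 3.08% of all genes. Those values already have the set means removed, which that fit did not count, so its p-values are too small. The median over members was -0.04 and over all genes -0.02, and 24 of 40 members were below 0, against 54.9% of all genes. Ccnd1 differed by 0.52 ± 0.19 (adjusted p = 0.399, 0.095 with the set block, 95% interval from 0.14 to 0.91), and Aurka by 0.27 ± 0.11 (adjusted p = 0.491, 0.191 with the set block). For Ccnd3 the difference was -0.040 ± 0.19, with a 95% interval from -0.44 to 0.36, and for Cdk1 0.070 ± 0.11, from -0.16 to 0.30.

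Against untreated cells, CD-cc had 18 lower members, against 11.1% of all genes, and 1 higher, Cdk4 at 0.78 ± 0.22, against 9.06%. Groups did not overlap for 12 lower members, against 8.08% of all genes, and for 0 higher ones, against 6.86%, and 36 of 40 members were below 0, against 53.5%. With the set block 24 were lower, against 18.1%, and 1 higher, against 13.7%. Cdk2 at -0.84 ± 0.11 and Ccnd3 at -1.13 ± 0.19 were the largest falls. Mcm4, Rrm1, Tyms, Kif11 and Stmn1 fell here without having passed the same test in cc against con, and that difference is the CD-cc against cc comparison, in which they did not pass. Each of these calls was lost when certain single arrays were left out, with limma's adjusted p then between 0.0507 and 0.14. Without con replicate 1 the count of lower members was 12, against 8.53% of all genes, and without con replicate 2 the higher members were 2, against 8.26%. The interaction, which asks whether HPβCD acted differently in loaded and unloaded cells, called 0 members (1 at an unadjusted p below 0.05, Aurka, and 0 with the set block), against 0.00998% of all genes higher and 0.0299% lower, and 0.02% and 0.12% with the set block. Its median was 0.14 over members and -0.00032 over all genes, and 7 of 40 members were below 0, against 50.1% of all genes.

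In both chip batches the members' median was below 0 in the 2 crystal comparisons. The cc minus con median was -0.56 in the batch of chips 1 and 5 and -0.28 in the remaining batch. Of 40 members, 30 were lower on both. By class, the G1/S and G2/M medians were -0.50 and -0.60 on chips 1 and 5 and -0.33 and -0.24 on the remaining chips. The order of the classes thus reversed between the batches, which was not tested. In CD-cc against CD the medians over all members were -0.36 and -0.19, with 33 of 40 lower on both. The share of all genes lower on both was not computed. In the batch of chips 1 and 5, all CD-cc arrays were on chip 1 and all CD arrays on chip 5. Crystals and chip therefore cannot be told apart in that -0.36. In CD against con the medians were -0.10 and -0.21, the second near the -0.28 of cc against con. On chips 2, 3, 4 and 6 the G1/S medians of CD replicates 1 and 5 were -0.33 and -0.37, within the cc range of -0.44 to -0.27. Their G2/M medians, -0.32 and -0.23, lay above the cc range of -0.63 to -0.33. No member's difference differed between the batches after adjustment in any of the 6 comparisons. Of all genes, 0.13% did so in cc against con, 0.809% in CD against con, 0.799% in CD-cc against cc, 0.0599% in CD-cc against CD, 1.28% in CD-cc against con and 0% in the interaction. On the 8 arrays of chips 2, 3, 4 and 6 alone, 3 members passed as lower, against 1.11% of all genes, and 0 as higher, against 1.73%, in cc against con. In untreated cells 1 member, Gins2, differed between the batches, with a mean of 7.67 for chips 1 and 5 against 6.80 for the remaining chips (adjusted p = 0.041); 2.98% of all genes were higher and 2.8% lower for chips 1 and 5.

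Other probes of the same genes mostly gave the same direction. Besides the probe used, 17 members had 26 further detected probes. In cc against con, 21 of the 23 further probes of genes called in either fit had the sign of the probe used, with a median ratio of the 2 differences of 0.91. The exceptions were a Cdc20 probe detected on 13 arrays and a Cenpa probe detected on 7. The third Ccnd1 probe differed by -0.32 where the first 2 differed by -0.74.

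Other genes of the same pathway were read from lists that exclude the 50. The shares of all genes called in cc against con, 8.97% lower and 8.49% higher, stand beside each count of these and the next lists. Of 44 measured mitosis genes, 12 fell in cc against con and 0 rose, with a median of -0.33. The largest falls were the spindle gene Ckap2l at -0.71 and the condensin subunits Ncaph at -0.66 and Ncapd2 at -0.62. Of 31 replication machinery genes, 4 fell and 1 rose, counts that lie near or below those shares, with a median of -0.23. DNA ligase Lig1 was at -0.67, the initiation factor Mcm10 at -0.66 and the single-strand binding subunit Rpa2 at -0.63, and the activator of the DDK kinase, Dbf4, rose by 0.43. Of 16 nucleotide synthesis genes 1 fell, the thymidylate kinase Dtymk at -0.49, and the list median was 0.063. In CD-cc against CD, 0 mitosis genes passed and 3 of 31 replication genes fell, against 4.64% of all genes, with list medians of -0.27 and -0.19. With the set block 6 of 44 and 4 of 31 were lower, against 10.1% of all genes.

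Regulators of the cycle were read from further lists, again against 8.97% of all genes lower and 8.49% higher in cc against con. Of 7 measured CDK inhibitors, 1 rose and 1 fell. Cdkn1c, which encodes the inhibitor p57, was between 8.72 and 10.23 in con and between 11.62 and 12.34 in cc. The groups did not overlap, and it rose by 2.56 ± 0.32 (adjusted p = 2.76e-05), a 5.88-fold higher signal. In CD-cc against CD it rose by 2.15 ± 0.32 (adjusted p = 2.24e-04). Cdkn2c, which encodes p18, an inhibitor of CDK4 and CDK6, fell by 0.70 ± 0.16 (adjusted p = 0.00517). The better known inhibitors Cdkn1a (p21) at -0.12 ± 0.19 and Cdkn1b (p27) at -0.19 ± 0.12 did not pass (adjusted p = 0.753 and 0.311).

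In a list of RB, E2F and DREAM factors that also holds genes of the MYC and MAX network, 1 of 19 measured genes rose and 3 fell in cc against con, against the same shares of all genes. E2f3, an activating E2F, rose by 0.45 ± 0.12. Of the 3 that fell, only Tfdp2, an E2F dimer partner, at -1.19 ± 0.28, belongs to the RB and E2F side. The other 2, Mxd4 and Mxi1, compete with MYC for its partner MAX and were at -1.87 ± 0.30 and -1.12 ± 0.37. Myc itself at -0.18 ± 0.18 and the mitotic activator Foxm1 at -0.10 ± 0.17 did not pass. Mybl2, which encodes B-MYB, was at -0.59 ± 0.21, with an adjusted p of 0.0601 and of 0.00359 with the set block. Of 17 p53 targets, 4 rose, against 8.49% of all genes, and 2 fell, against 8.97%, among them the growth arrest gene Gadd45a at 2.17 ± 0.31, the kinase Plk2 at 2.11 ± 0.32 and the sestrin Sesn1 at -1.26 ± 0.33. Of 12 M-CSF signalling genes 0 rose and 1 fell, the transcription factor Maf at -0.55 ± 0.16, and the receptor Csf1r at -0.27 ± 0.18 did not pass (adjusted p = 0.361).

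Markers of other cells that a marrow culture can hold were read beside these results. Stromal fibroblast markers were detected for 7 of 8 genes, and their summed signal overlapped in all groups, at 589 to 2163 in con, 678 to 2431 in cc, 641 to 1744 in CD and 549 to 2369 in CD-cc. Haematopoietic progenitor markers were measured for 5 of 8 genes with Hoxa9 detected on no array. Their sum was 229 to 288 in con and 474 to 868 in cc, and 180 to 263 in CD and 331 to 609 in CD-cc, without overlap between groups with and without crystals in either pair. Of the 5 genes, 1 rose in both, Kit, and the median over the 5 was -0.034 in cc against con and -0.18 in CD-cc against CD. Kit was detected on 2 of 5 con arrays and 0 of 5 CD arrays, and on all 5 arrays of cc and of CD-cc. Its log2 signal was 4.29 to 4.82 in con and 7.56 to 9.35 in cc (adjusted p = 5.17e-08), and it was at least 9.81-fold higher in CD-cc than in CD (adjusted p = 3.14e-08), with means of 8.01 and 4.43. The bound sets CD at the lowest signal among detected probes of each array, or at the Kit signal where that is higher. Erythroid markers were measured for 2 of 8 with Alas2 and Car2 on no array, and their sum overlapped, at 1300 to 2525 in con, 1893 to 3406 in cc, 1379 to 2833 in CD and 1860 to 3264 in CD-cc. B cell markers were measured for 3 of 8 with Pax5 and Igll1 on no array, at 57.5 to 133 in con, 58.2 to 80.1 in cc, 59.0 to 113 in CD and 46.8 to 92.1 in CD-cc. Of 12 neutrophil precursor markers 1 was measured, with Mpo, Ctsg, Ms4a3, Ngp and Mmp8 on no array. Of the mast cell, T and NK cell, and dendritic cell markers, 0 of 8, 1 of 8 and 2 of 8 were measured. The sum of the 10 macrophage markers was 79704 to 94152 in con and 70625 to 84788 in cc, with overlap, and 85163 to 92005 in CD and 64514 to 80943 in CD-cc, without overlap. In cc against con 2 of the 10 fell, Cd14 at -1.14 ± 0.29 and Itgam at -0.88 ± 0.26, and 0 rose, and with the set block 4 were lower and 1 higher. In CD-cc against CD 1 fell, Cd14 at -1.08 ± 0.29, and 1 rose, Mertk at 1.63 ± 0.27. The part of any of these in the lower cell cycle signals was not tested.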

How the data were processed

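RNA of cultured macrophages was hybridised to 20 arrays on Illumina mouse BeadChips. The authors deposited bead signals as intensity values without background correction, each probe with its detection p-value, and a second table of log2 values from Partek, per the submitters' processing notes, which give no version and no steps. The deposited log2 table was recomputed from the bead signals by quantile normalization and by setting 5 sets of 4 arrays (1 of each group) to equal means, with an SD of the difference of 6.96e-05; column medians were 6.71 to 6.72. From the intensity values, normexp background correction with controls inferred from the detection p-values, an offset of 16, quantile normalization and log2 were computed with limma 3.58.1 in R 4.3.3. A probe entered if its detection p was below 0.05 on 5 or more arrays, and the single-symbol probe with the highest mean stood for its gene. Of all probes, 34885 had 1 symbol, 18 several and 10378 none. limma (lmFit, contrasts.fit, eBayes; two-sided) was fitted on 10018 genes and all 20 arrays with group as the only term, and p-values were adjusted by Benjamini-Hochberg over all genes.

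Alternatives changed the background correction, normalization, values, filter, probe choice, block and arrays. Replicate numbers do not pair the arrays: the deviations of same-numbered arrays correlated with a median of -0.20 (-0.56 to 0.65) over 30 pairs, and those of the same set with 0.53. The fit was tested on simulated data that held set effects and shifts in cc. Those data held no chip effects and were not normalized, so they do not test these steps. The members, their classes and all other lists were chosen with earlier results of these data known. Named genes were all members, up to 3 called genes of each other list with the largest change, and Cdkn1a, Cdkn1b, Myc, Csf1r, Foxm1 and Mybl2. The number of arrays limits the precision.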

Additional observations from a re-analysis of the deposited data

Results flagged for a closer look

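In 6 of 160 combinations of a member and a group, 1 array lay far from the other 4 of its group by Dixon's criterion, which chance meets in about 1 of 20 groups. Ccnd3 on cc replicate 5 was 7.13, with the next cc array at 7.71, and all cc arrays lay below all con arrays with it or without it. Ccne1 on cc replicate 4 was 4.77, with the next at 5.11. Mcm3 on CD-cc replicate 2 was 7.67, with the next at 6.83. Rrm2 on CD-cc replicate 2 was 6.98, with the next at 7.32. Aurkb on CD-cc replicate 1 was 7.20, with the next at 7.68. Kif11 on cc replicate 5 was 6.68, with the next at 6.87. No member differed between the chip batches in any comparison after adjustment.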

How the results depend on the processing

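The members' median kept its sign under every alternative run in cc against con (-0.56 on chips 1 and 5 alone to -0.28 on the other chips alone) and in CD-cc against CD (-0.36 to -0.19; -0.22 without background correction and with the authors' deposited values). The number of calls was less stable. With the set block, lower members were 29 in cc against con, 2 in CD against con and 15 in CD-cc against CD, with 1 higher in the last. The shares of all genes were 15.2%, 1.56% and 10.1% lower, and 8.46% higher in the last. With arrays scaled to a common median, lower members were 1 in cc against con, 0 in CD-cc against CD and 3 in CD-cc against con. The shares of all genes were 1.59%, 0.679% and 2.43%. Higher members were 0 in all 3, against 3.12%, 1.2% and 3.49% of all genes. The authors' deposited values gave 30 lower in cc against con (20% of all genes), 3 in CD against con (4.72%) and 24 in CD-cc against CD (15.6%). They gave 29 lower in CD-cc against con (23.1%), 2 higher in CD-cc against CD (12.6%) and 2 higher in CD-cc against cc (3.08%). Those values already have the set means removed, which the fit without a block did not count, so its p-values are too small. With the set block they gave 28, 2 and 15 lower in the first 3 (15.6%, 1.63% and 10.6%). There 1 was higher in CD-cc against CD (9.02%). With chip as a fixed block, cc against con had 1 higher, CD-cc against CD 1 lower and CD-cc against con 0 higher, and with chip as a random block CD-cc against CD had 4 lower. With chip batch as a block, CD against con had 1 lower and CD-cc against CD 1 higher. Chips 1 and 5 alone gave 2 higher in CD-cc against con, against 7.79% of all genes. Chips 2, 3, 4 and 6 alone, which hold 8 arrays, gave 3 lower (1.11% of all genes) and 0 higher (1.73%) in cc against con. They gave 1 lower in CD-cc against CD (0.868%) and 0 higher in CD-cc against con (6.71%). There Cdt1 at -0.036 and Tyms at 0.022 in cc against con and Ccnd2 at 0.053 in CD-cc against con had turned sign. With only the groups compared in the fit, cc against con had 1 higher and CD-cc against CD 2 lower. With all detected probes or with no filter on dim probes, cc against con had 1 higher, and without background correction CD against con had 1 lower. No share of all genes is given for the fits with chip or chip batch as a block. The same holds for the fits with only the groups compared, all detected probes, no filter or no background correction. The cause of the changes between the alternatives was not tested.

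Leaving out each array in turn gave 13 to 21 lower and 1 to 2 higher in cc against con. The shares of all genes were 5.81% to 9.3% and 6.19% to 8.6%. In CD-cc against CD it gave 2 to 7 lower and 0 to 1 higher, against 2.84% to 5.86% and 3.13% to 5.2%. In CD-cc against con it gave 12 to 21 lower and 1 to 2 higher, against 8.25% to 11.5% and 7.22% to 9.27%. Elsewhere it gave 0. The call was kept without any 1 array for 13 of 20 members in cc against con, 2 of 7 in CD-cc against CD and 13 of 19 in CD-cc against con. With the replicate number as a block, 15 members were lower in cc against con and 5 in CD-cc against CD. The shares of all genes were 7.66% and 3.92%. Of the 20 arrays, 4 matched best an array of their own number. Signal over background limits the 8 members with a named probe that were hardly detected.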
